A study of Rattus norvegicus with 9 samples.

Results

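The genes examined were 10 genes of the unfolded protein response in rat knee cartilage, out of 32043 genes measured. They were the stress sensors Ern1, Eif2ak3, Atf6 and Atf6b, the transcription factors Xbp1, Atf4 and Ddit3, and Trib3, Ppp1r15a and Asns, which act downstream of ATF4 in the PERK branch. Each was taken by its exact gene name, and of the 2 entries named Atf6 the one described as activating transcription factor 6 was used. The other Atf6 entry is described as Atf3 and is reported under that name below, and an entry spelled xbp1 in lower case is described as Caprin2 and was not used. Of the 10 genes, 8 passed the filter for testing, a mean of at least 0.5 FPKM (a count of reads scaled to gene length and library size) over the 9 libraries. Trib3 was below it and Ppp1r15a was listed at 0 in every library.

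The study asked how Shengyu decoction (SYD), a traditional Chinese herbal formula, acts on knee osteoarthritis, and RNA was sequenced from 3 libraries of each of 3 groups of male Sprague–Dawley rats that were 8 weeks old at the start. In the control group the joint capsule of the left knee was opened and sutured. In the model group the medial collateral and anterior cruciate ligaments were cut and the medial meniscus was removed by the modified Hulth method, followed by forced activity. In the SYD group the same surgery was followed by SYD extract given by gavage for 4 weeks. The labels give no dose, while the study's results call the sequenced group SYD-H, its highest dose. Cartilage was collected 8 weeks after surgery, and all groups thus share an opened joint. The labels do not say whether each library is 1 animal, so p-values measure only the spread between these libraries.

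The unfolded protein response is the reaction of a cell to misfolded protein in the endoplasmic reticulum, and secretory cells such as chondrocytes, which export large amounts of collagen and aggrecan, depend on it. IRE1, encoded by Ern1, splices Xbp1 mRNA into the form that makes the active factor XBP1s. PERK, encoded by Eif2ak3, phosphorylates the translation factor eIF2α, which lowers protein synthesis while ATF4 is translated. ATF6 and its relative ATF6B are cleaved in the Golgi to release a transcription factor, and much of the activity of these proteins is therefore set after the mRNA is made and is not seen in a gene's read count.

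Promoter windows from RefSeq (assembly GRCr8) were found for 8 of the 10 genes, all except Ern1 and Atf6, each covering 250 bases before and 50 after the start site. They were searched on both strands for the C/EBP-ATF response element TGATGNAA, the endoplasmic reticulum (ER) stress response element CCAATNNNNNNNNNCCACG and its second form ATTGGNCCACG, and the core of the unfolded protein response element, TGACGTGG. The ER stress response element was present in 1 of the 8 windows, that of Xbp1, and in 0.0657% of all 33469 promoter windows. The C/EBP-ATF element was present in 1 of the 8, that of Trib3, and in 3.98% of all windows. No match was found in the 8 windows for the second form, which 0.0508% of all windows hold, or for the core element, which 0.595% hold. The parts of the 2 matched windows before the start site are shown because they hold these matches, 1 in the IRE1 branch and 1 in the PERK branch. Capitals mark the match, at -65 to -47 from the start site in Xbp1 (chr14:84604373-84604622, + strand) and at -21 to -14 in Trib3 (chr3:161275534-161275783, - strand, matched on the opposite strand).
Xbp1: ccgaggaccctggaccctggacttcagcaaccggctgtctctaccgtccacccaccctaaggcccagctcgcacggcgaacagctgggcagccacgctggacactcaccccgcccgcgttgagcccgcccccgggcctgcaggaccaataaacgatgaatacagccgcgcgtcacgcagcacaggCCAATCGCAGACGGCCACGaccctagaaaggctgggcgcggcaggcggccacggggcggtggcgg
Trib3: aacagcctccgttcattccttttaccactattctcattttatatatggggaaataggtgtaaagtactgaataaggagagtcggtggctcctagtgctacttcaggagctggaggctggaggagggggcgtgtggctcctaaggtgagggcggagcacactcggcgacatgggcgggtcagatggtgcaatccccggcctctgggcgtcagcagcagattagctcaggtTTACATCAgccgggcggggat

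In cultured chondrocytes the study amplified the spliced form of Xbp1 with its own primers, shown here because the forward primer lies across the junction that IRE1 splicing makes. The sequencing table has a single value per gene and library, so the Xbp1 level given here is the sum of the spliced and unspliced forms.
XBP1s forward: gctgagtccgcagcaggt
XBP1s reverse: ggtccaacttgtccagaatgc

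The libraries differed in ways that touch every result below. Recovered read totals were between 14914121 and 19510537, but genes of the mitochondrial chromosome took 4.05% to 4.86% of the reads in control libraries, 90.7%, 39.5% and 81.3% in model libraries 1, 2 and 3, and 23.7%, 34.7% and 72.7% in SYD libraries 1, 2 and 3. This left between 1744769 and 11106680 reads for all other genes in model libraries. Genes listed at 0 were most frequent in model libraries 1 and 3, followed by SYD library 3. Of the 6344 genes with a control mean between 2 and 10 FPKM, 28.6%, 4.70% and 20.6% were at 0 in model libraries 1, 2 and 3, and 2.03%, 1.88% and 6.07% in SYD libraries 1, 2 and 3. Of the 641 with a control mean of 30 to 100 FPKM, these shares were 2.34%, 2.03% and 2.5% in model libraries and 0.156%, 0.156% and 1.09% in SYD libraries. The defining cartilage gene Col2a1 was present in every library, from 39.0 to 8323 FPKM, yet the 15 chondrocyte markers summed to only 497 FPKM in control library 2, against 11813 and 6121 in control libraries 1 and 3, 239 to 965 in the model group and 213 to 1586 in the SYD group. The 7 erythroid markers, hemoglobin among them, were present in every group, at 6540 to 16261 FPKM in control libraries, 296 to 42451 in the model group and 1311 to 13572 in the SYD group. In a bulk sample, fewer cells of a type and less RNA per cell cannot be told apart.

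Atf6b had the clearest group difference among the sensors. ATF6B is a weaker activator of transcription than ATF6, and its gene lies at chr20:4090921-4098894 on the - strand in the table, whose rat build is not named. Control libraries 1, 2 and 3 had 19.8, 20.45 and 18.0 FPKM, model libraries had 0, 8.55 and 3.15, and SYD libraries had 12.1, 11.6 and 14.0. In FPKM the 3 groups did not overlap, with every SYD library between the highest model and the lowest control library. The mean was 19.4 ± 1.26 in control, 3.90 ± 4.32 in model and 12.6 ± 1.27 in SYD (SD, n = 3), and the smallest p that assignments of the libraries allow was reached over the 3 groups (exact permutation test, p = 0.00357, 9 genes tested, unadjusted).

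Against control, Atf6b in the model group was lower by a log2 fold change of -2.58 (SE 0.80, limma, adjusted p = 0.156), a ratio of means of 0.201. It met the study's criteria (unadjusted p = 0.0169 and an absolute log2 fold change over 1) but not the adjusted threshold of 0.05. SYD against model gave 1.99 on that scale (SE 0.81, unadjusted p = 0.0461, limma adjusted p = 0.723), a ratio of 3.23. In SYD against control Atf6b fell by 0.59 on the log2 scale (SE 0.13, limma adjusted p = 0.0328), a ratio of 0.649, and it was the one gene of the 8 called in any comparison. This call was lost when control library 1, 2 or 3 (limma adjusted p = 0.106 to 0.108, with 1.5% to 5.45% of all tested genes called) or SYD library 1 or 2 (0.0716 and 0.0761, with 11.8% and 11.4%) was left out, and held without SYD library 3 (0.0210, with 25.4%). Its log2 fold change stayed between -0.66 and -0.54. It was also lost with all 9 libraries in one fit (limma adjusted p = 0.735), where 1.82% of all tested genes were called. Model against control became a call without model library 2 (Atf6b log2 fold change -3.33, limma adjusted p = 0.0316), where 18.9% of all tested genes were called. Without model library 1, the one at 0, the log2 fold change of Atf6b was -1.70 in model against control and 1.11 in SYD against model. In model library 1, where Atf6b was listed at 0 and 3 reads would equal 0.314 FPKM, 6.07% of the 2190 genes with a control mean of 10 to 30 FPKM were also at 0, as were 2.10% and 4.25% in model libraries 2 and 3. The part of this dropout in the Atf6b difference was not tested.

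**Figure D1:**
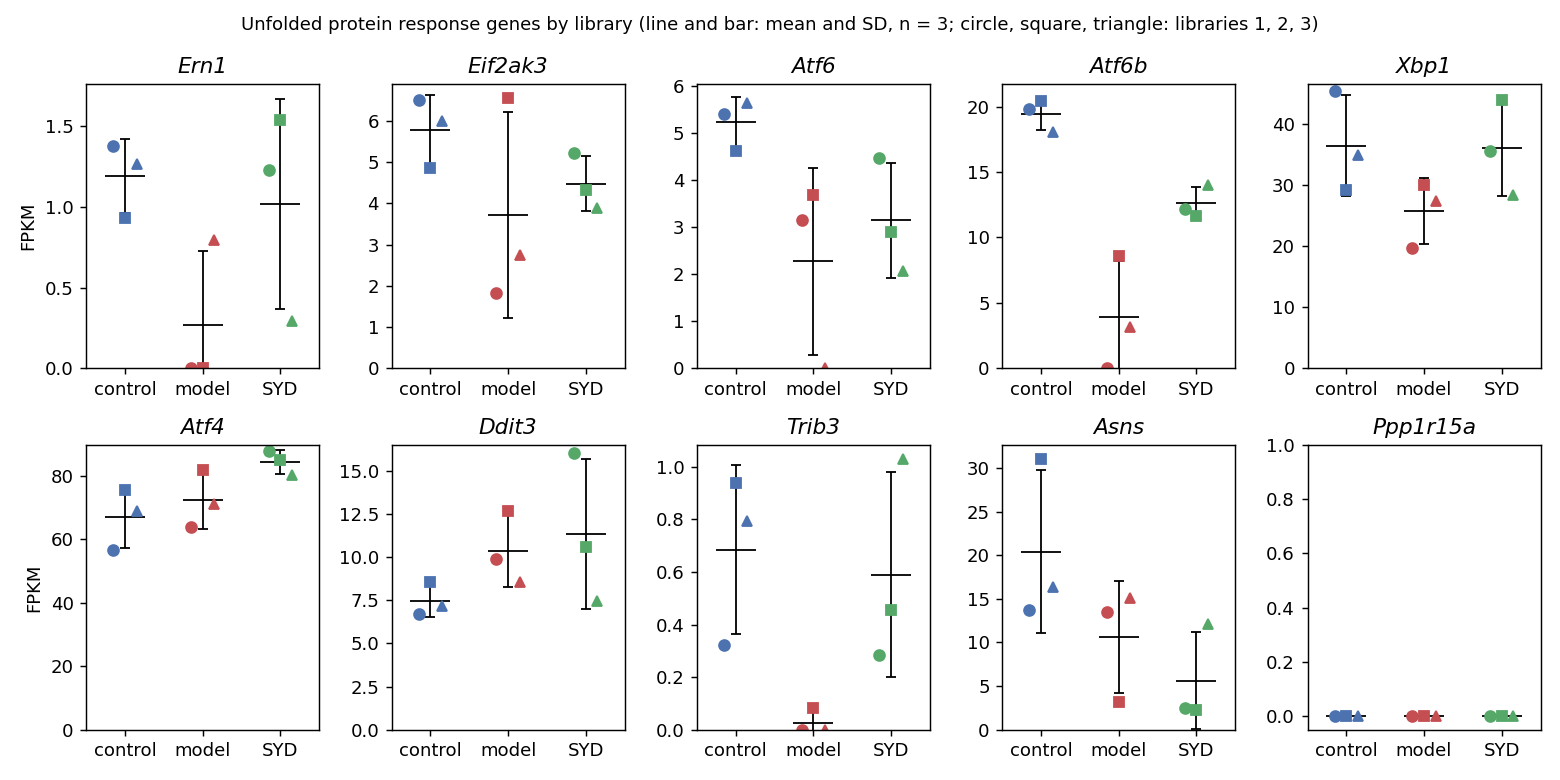
Levels of the 10 genes in FPKM, on a linear axis that starts at 0 except for Ppp1r15a, by group. Circles, squares and triangles are libraries 1, 2 and 3, and the lines and bars are the mean and SD of 3 libraries. The 3 groups of Atf6b libraries are apart, at 18.0 to 20.45 in control, 0 to 8.55 in model and 11.6 to 14.0 in SYD, while Atf4 libraries lie between 56.5 and 87.7 in all groups.

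Atf6, the sensor cleaved under stress, was present at 5.40, 4.61 and 5.64 FPKM in control libraries, 3.14, 3.68 and 0 in model libraries, and 4.47, 2.89 and 2.07 in SYD libraries. Every model and SYD library was below every control library, and the model and SYD groups overlapped. The log2 fold change was -1.21 (SE 0.65, limma adjusted p = 0.377) in model against control, 0.58 (SE 0.70, adjusted p = 0.793) in SYD against model and -0.62 (SE 0.25, adjusted p = 0.141) in SYD against control. Over the 3 groups the exact permutation p was 0.15. The values of the comparisons with the model group rested on model library 3. Without it the log2 fold change of Atf6 was -0.50 in model against control and -0.13 in SYD against model.

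Ern1, which encodes the IRE1 kinase and endoribonuclease, had the lowest level of the 4 sensors. Control libraries had 1.37, 0.931 and 1.27 FPKM, model libraries 0, 0 and 0.796, and SYD libraries 1.23, 1.54 and 0.290. All model libraries were below all control libraries, and SYD libraries 1 and 2 were within or above the control range while SYD library 3 was low. Ern1 had a log2 fold change of -0.84 (SE 0.30, unadjusted p = 0.0304, limma adjusted p = 0.204) in model against control, 0.67 (SE 0.40, adjusted p = 0.723) in SYD against model and -0.17 (SE 0.29, adjusted p = 0.704) in SYD against control. The exact permutation p of Ern1 over the 3 groups was 0.075. Only 19 Ern1 reads were recovered in the whole model group, against 450 in control and 286 in SYD, and of the 3232 genes with a control mean of 0.5 to 2 FPKM, 60.1% were at 0 in model library 1, 12.3% in model library 2 and 44.7% in model library 3.

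Eif2ak3, which encodes PERK, was present at 6.51, 4.87 and 6.0 FPKM in control libraries, 1.82, 6.55 and 2.76 in model libraries, and 5.21, 4.32 and 3.90 in SYD libraries. Model library 2 was the highest of the 9 and model libraries 1 and 3 the lowest, so the spread in the model group exceeded the distance between groups. No comparison passed the test, with log2 fold changes of -0.65 (SE 0.45, limma adjusted p = 0.485), 0.34 (SE 0.49, adjusted p = 0.825) and -0.31 (SE 0.18, adjusted p = 0.268) in model against control, SYD against model and SYD against control. The 95% interval of the first ran from -1.73 to 0.43, which covers both no change and a change of more than 1 downward. Leaving out model library 1 gave -0.34, and leaving out model library 2 gave -1.05.

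Xbp1, the factor activated by IRE1 splicing, was the second most abundant of the 10 genes. Control libraries had 45.3, 29.1 and 34.9 FPKM, model libraries 19.6, 30.1 and 27.3, and SYD libraries 35.6, 44.0 and 28.4. The groups overlapped in all 3 comparisons, with means of 36.5 ± 8.20, 25.7 ± 5.41 and 36.0 ± 7.77 FPKM (SD, n = 3). Xbp1 gave a log2 fold change of -0.49 (SE 0.27, limma adjusted p = 0.393) in model against control, 0.47 (SE 0.29, adjusted p = 0.723) in SYD against model and -0.02 (SE 0.23, 95% interval -0.58 to 0.55, adjusted p = 0.974) in SYD against control. Xbp1 is also high in plasma cells, whose 7 other markers summed to 162 to 244 FPKM in control libraries, 18.8 to 102 in model libraries and 47.9 to 65.6 in SYD libraries, and the defining plasma cell gene Jchain was above 0 in all 9 libraries. Their part in the Xbp1 level was not tested.

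Atf4, the factor translated when PERK is active, had the highest mRNA level of the 10 genes in every group. Control libraries had 56.5, 75.4 and 69.0 FPKM, model libraries 63.8, 81.7 and 71.1, and SYD libraries 87.7, 85.0 and 80.3. Every SYD library was above every control library, and the model group overlapped both. It differed by a log2 fold of 0.11 in model against control (SE 0.23, 95% interval -0.44 to 0.66, limma adjusted p = 0.825), a sign that turned under 3 other scalings of the values. It was 0.23 (SE 0.23, adjusted p = 0.756) in SYD against model and 0.34 (SE 0.15, adjusted p = 0.177) in SYD against control, which turned to -1.20 when FPKM were rescaled to TPM.

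Ddit3 encodes CHOP, the factor of the PERK branch linked to cell death. Control libraries had 6.72, 8.53 and 7.14 FPKM, model libraries 9.88, 12.7 and 8.54, and SYD libraries 16.0, 10.6 and 7.45. All 3 model libraries were above the control libraries, library 3 only narrowly, while SYD library 3 lay within the control range. Ddit3 gave a log2 fold change of 0.41 (SE 0.26, limma adjusted p = 0.453) in model against control and 0.49 (SE 0.28, adjusted p = 0.262) in SYD against control, and both signs turned under TPM scaling. In SYD against model it was 0.08 (SE 0.36, 95% interval -0.80 to 0.95). Ddit3 overlaps Mars1 on the opposite strand by 60 bases in the table, and reads of the 2 genes cannot be told apart there without strand.

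Asns encodes asparagine synthetase and is a classic target of ATF4 under amino acid limitation. Control libraries had 13.8, 31.1 and 16.3 FPKM, model libraries 13.4, 3.22 and 15.1, and SYD libraries 2.49, 2.28 and 12.1. All 3 SYD libraries were below all control libraries, and the low values were confined to model library 2 and SYD libraries 1 and 2. SYD against control had a log2 fold change of -1.92 (SE 0.62, unadjusted p = 0.0211, limma adjusted p = 0.0843), a ratio of 0.275, which met the study's criteria. Model against control was -1.02 (SE 0.60, adjusted p = 0.419) and SYD against model was -0.91 (SE 0.77, adjusted p = 0.724), and over the 3 groups the exact permutation p was 0.0464, unadjusted. Without model library 2 the log2 fold changes of Asns were -0.40 and -1.525 in these 2 comparisons.

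The libraries low in Asns were also those with the lowest erythroid and neutrophil marker sums. The erythroid sum was 296, 1311 and 1874 FPKM in model library 2 and SYD libraries 1 and 2, against 6540 to 42451 in the other 6 libraries. The 9 neutrophil markers summed to 69.8, 539 and 851 FPKM in those 3 libraries and to 1976 to 7947 in the other 6. S100a8 and S100a9 made up most of the largest sum, at 4068 and 3345 FPKM in model library 1. Taken singly, Mmp8, Mpo, Ngp, S100a8 and S100a9 were lowest in those 3 libraries, while Camp, Elane, Ltf and Prtn3 were not. Prtn3 was at 1.71 FPKM in SYD library 3, against 2.17 and 3.80 in SYD libraries 1 and 2. Asns was highest in control library 2, where the chondrocyte sum was lowest of the control libraries. The 6 B cell markers summed to 235 to 304 FPKM in control libraries, 4.66 to 54.4 in model libraries and 7.08 to 39.8 in SYD libraries, with the defining gene Cd79a above 0 in all 9 libraries. The part of these cells in the Asns difference was not tested.

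**Figure D2:**
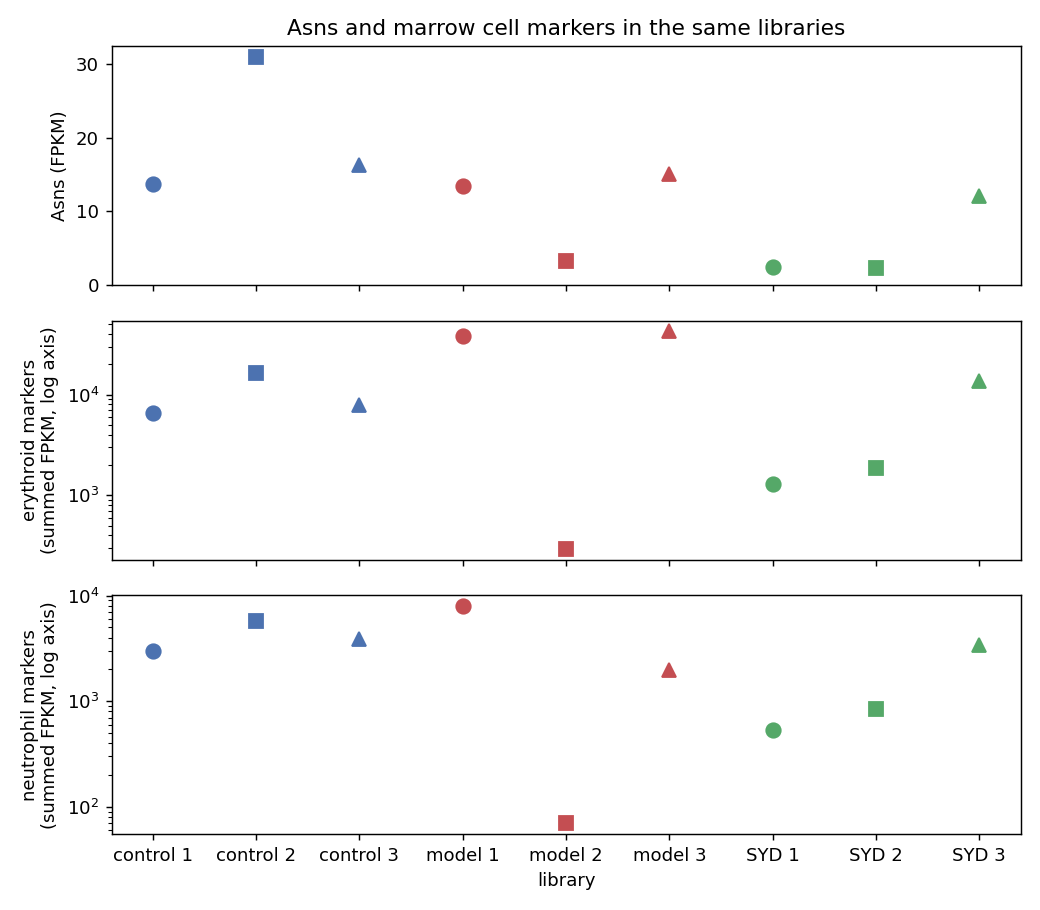
Asns in FPKM on a linear axis, and the summed FPKM of 7 erythroid and 9 neutrophil markers on log axes, for each of the 9 libraries. Model library 2 and SYD libraries 1 and 2 are the lowest 3 in all panels, with Asns at 3.22, 2.49 and 2.28.

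Trib3, a pseudokinase induced by ATF4 and CHOP, was scarce, at 0.323, 0.938 and 0.793 FPKM in control libraries, 0, 0.0816 and 0 in model libraries, and 0.284, 0.456 and 1.03 in SYD libraries. The model libraries were below all the others. They held 4 Trib3 reads in all, against 140 in control and 60 in SYD, and 3 reads would equal 0.445 and 0.243 FPKM in model libraries 1 and 3. The levels of control library 1 and SYD library 1 lie below the first of these floors and above the second. Over the 3 groups the exact permutation p of Trib3 was 0.0643, and it was 0.0286 with a pseudocount of 0.1, 0.0286 after rescaling to genes outside the mitochondrial chromosome and 0.00357 with TPM. Model against control and SYD against model each gave 0.1, the smallest p that 3 against 3 allow.

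Ppp1r15a encodes GADD34, which brings back the eIF2α phosphatase and so ends the PERK arrest. It was listed at 0 reads in all 9 libraries, as were 5289 of 23098 protein-coding genes (22.9%). In the table its whole span of 3114 bases on the - strand of chromosome 1 lies within that of Nucb1 on the same strand, which had a mean of 19.0 FPKM, and part of it lies within Tulp2 on the other. How reads in this span were assigned is not given in the sources used here, so a level of Ppp1r15a cannot be read from this entry.

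Because FPKM are per kilobase, levels can be compared between genes. In the control group the order of mean FPKM was Atf4, Xbp1, Asns, Atf6b, Ddit3, Eif2ak3, Atf6, Ern1 and Trib3. The libraries of Xbp1 and Asns, Asns and Atf6b, Eif2ak3 and Atf6, and Ern1 and Trib3 overlapped, and those of the other neighbours did not. Compared within a library, Eif2ak3 was above Atf6 in 3 of 3 control libraries, Xbp1 above Asns and Ern1 above Trib3 in 2 of 3, and Asns above Atf6b in 1 of 3. In the SYD group Asns was below Atf6b in 3 of 3 libraries and below Ddit3 in 2 of 3, and in the model group Ddit3 was above Atf6b in 3 of 3, although the ranges overlapped in each case. The sensors had lower mRNA levels than Xbp1 and Atf4 in every group.

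Counted together, 0 of the 8 tested genes were called in model against control at an adjusted p under 0.05 in limma, where 2.59% of all 13898 tested genes were. By the study's criteria 1 of 8 passed, Atf6b, against 14.7% of all genes. The libraries of the 2 groups did not overlap for 4 of the 8 (Ern1, Atf6, Atf6b and Ddit3), against 28.7% of all tested genes. At an unadjusted p under 0.05, 2663 genes passed (19.2%), Atf6b and Ern1 among them, and voom on the recovered reads called 0 of the 8, beside 3.32% of all tested genes. Over all tested genes the log2 fold changes had a median of -0.23.

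In SYD against model, 0 of the 8 and 0% of all tested genes had an adjusted p under 0.05 in limma, with 731 genes (5.26%) at an unadjusted p under 0.05 and 0 called by voom on the recovered reads. Atf6b alone met the study's criteria, as did 4.15% of all genes, and it alone had libraries that did not overlap, as did 11.1%. The 8 log2 fold changes were above 0 except that of Asns, beside a median of 0.22 over all tested genes, of which 37.5% were below 0. Since model against control and SYD against model share the model libraries, a low model value gives both a negative first and a positive second difference, and the pair is not independent evidence.

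In SYD against control, 1 of the 8 (Atf6b) was called, against 17.3% of all tested genes. By the study's criteria 1 of 8 passed (Asns), against 16.5%. Libraries did not overlap for 4 of the 8 (Asns, Atf4, Atf6 and Atf6b), against 42.5%. Each of these shares was near or below that of all genes.

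**Figure D3:**
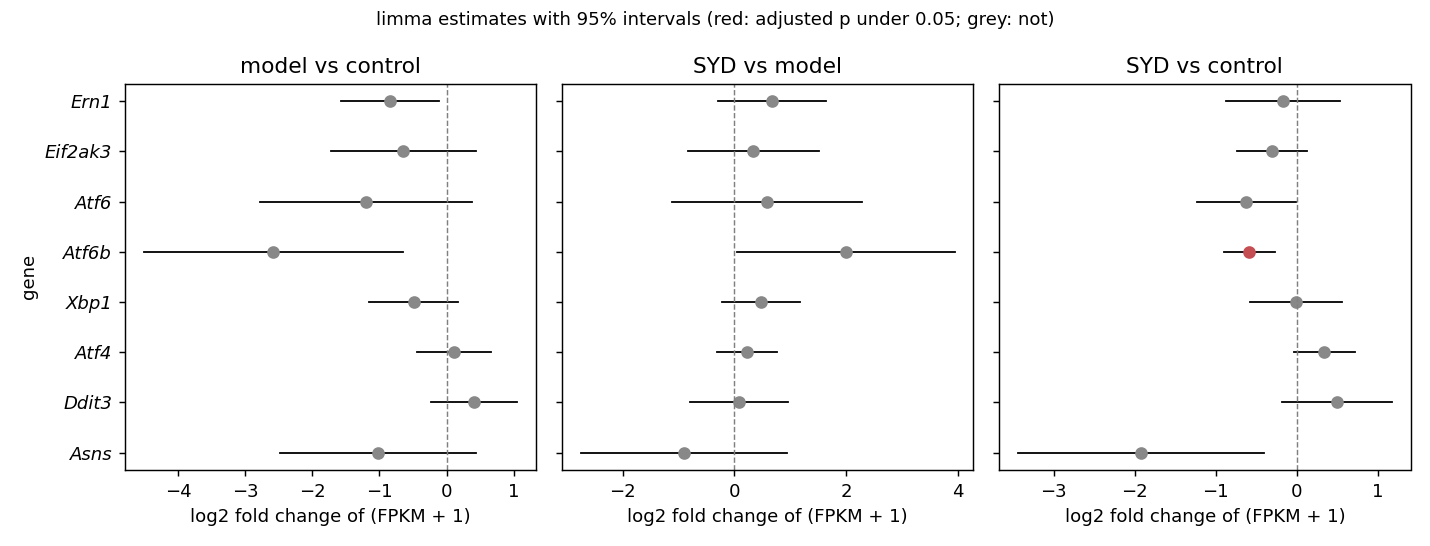
Log2 fold changes of FPKM + 1 from limma for the 8 tested genes in the 3 comparisons, with 95% intervals as lines. Red points have an adjusted p under 0.05, which holds for Atf6b in SYD against control (-0.59) and for no other point.

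The chaperones, folding enzymes and degradation factors that XBP1 and ATF6 switch on had lower values in the model group in most cases. In model against control 1 of 29 tested was called, beside 2.59% of all tested genes. Without model library 2, 6 were called lower there, beside 15.4% of all tested genes. Of the 29, 26 were below 0 in model against control, as were 61.3% of all tested genes. The list median of the log2 fold change was -0.76, beside -0.23 for all genes. In SYD against model 26 of 29 were above 0 and 3 below, beside 37.5% of all tested genes below 0. The list median there was 0.88, beside 0.22, and 0 were called (5 at an unadjusted p under 0.05, beside 5.26% of all tested genes, and 0 by voom). With a pseudocount of 0.1 these medians were -0.90 and 1.02, beside -0.54 and 0.46 for all genes. Called genes became 27 of 29, all lower, in model against control when FPKM were rescaled to TPM, where 69.4% of all tested genes were called lower. SYD against control had 11 below and 18 above 0, beside 49.5% of all tested genes below 0. The list median there was 0.11, beside 0 for all genes. Without each library in turn the medians stayed at -1.04 to -0.50 in the first comparison and at 0.62 to 1.26 in the second, which share the model libraries. Their signs held under the other scalings, while that of SYD against control turned to -1.42 with TPM. Quantile normalization gave -0.75 and 0.86, beside 0.036 and -0.021 for all tested genes. Voom on the recovered reads gave -0.55 and 0.64, beside -0.52 and 0.35 for all tested genes. Sums of bone cell markers moved in the same libraries. The 8 osteoblast markers summed to 2633, 7481 and 1248 FPKM in model libraries 1, 2 and 3, against 7764 to 10498 in SYD libraries and 3005 to 5971 in control libraries. The 7 osteoclast markers summed to 653, 1790 and 450 FPKM in model libraries, against 2008 to 2688 in SYD and 616 to 1063 in control. Both sums were lower in every model library than in every SYD library, as were 1 of the 8 osteoblast and 3 of the 7 osteoclast markers taken singly. These counts stand beside 11.1% of all tested genes whose libraries did not overlap, in either direction. The part of bone cells in the values of this list was not tested.

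Syvn1, which encodes the HRD1 ubiquitin ligase that clears misfolded proteins from the ER, was the one gene of that list with an adjusted p under 0.05 in model against control. Control libraries had 21.5, 28.1 and 23.4 FPKM, model libraries 4.06, 4.66 and 5.62, and SYD libraries 10.8, 11.6 and 11.8. The 3 groups were apart, as for Atf6b, and the values within a group were close. The log2 fold change was -2.13 (SE 0.25, limma adjusted p = 0.0382) in model against control, 1.11 (SE 0.30, adjusted p = 0.723) in SYD against model and -1.02 (SE 0.14, adjusted p = 0.0118) in SYD against control. Without control library 1, 2 or 3 no tested gene was called in model against control, and without model library 3 only 1 was, so these settings do not bear on the first call of Syvn1, whose log2 fold change there was -2.235 to -2.029. The second was lost without control library 3 (limma adjusted p = 0.0663) and with all 9 libraries in one fit (limma adjusted p = 0.0786). The B cell sums given above and the plasma cell sums were likewise lower in every model and SYD library than in every control library. Taken singly, 6 of the 6 B cell and 5 of the 7 plasma cell markers were lower in every model library than in every control library. In SYD libraries 5 and 4 were lower in this way, while the plasma cell markers Sdc1 and Prdm1 were higher in every SYD library. Over all tested genes, 28.7% in model against control and 42.5% in SYD against control did not overlap, in either direction. The part of these cells in the Syvn1 difference was not tested.

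The most abundant genes of the list did not pass the test in model against control. Calr, the chaperone calreticulin, had a mean of 142 FPKM over the 9 libraries and a log2 fold change of -0.62 (SE 0.30, limma adjusted p = 0.335). P4hb, a protein disulfide isomerase that is also a subunit of the collagen prolyl hydroxylase, had a mean of 90.3 FPKM and differed by -0.08 on the log2 scale (SE 0.44, adjusted p = 0.941). Hspa5, which encodes BiP, the chaperone that holds the sensors inactive, had 92.6, 63.5 and 67.3 FPKM in control libraries, 29.5, 60.2 and 44.0 in model libraries and 89.5, 89.7 and 63.3 in SYD libraries. Every model library was below every control and SYD library, and the log2 fold change of Hspa5 was -0.76 (SE 0.33, adjusted p = 0.275). By the study's criteria Sdf2l1, Syvn1 and Hyou1 were lower in model against control, and Hsp90b1, Pdia6, Syvn1 and Dnajc3 were higher in SYD against model, names chosen after their values were seen. These were 3 and 4 of the 29 tested, beside 14.7% and 4.15% of all tested genes in either direction.

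Among the partners of the sensors, which include the other eIF2α kinases, the ATF6 protease and regulators of IRE1, 0 of 18 tested were called in model against control and in SYD against model, beside 2.59% and 0% of all tested genes. In each, 3 were at an unadjusted p under 0.05, beside 19.2% and 5.26%, and 0 were called by voom, beside 3.32% and 0%. With TPM, 15 of 18 were called lower in model against control, beside 69.4%. Without model library 2, 1 was called higher and 4 lower there, beside 3.5% and 15.4% of all tested genes. The median log2 fold change of the 18 was -0.78, 0.48 and -0.17 in model against control, SYD against model and SYD against control. Without model library 1 it was -0.45 and 0.23 in the first 2 comparisons, and without SYD library 3 the last turned to 0.05. Besides Hspa5, the most abundant were Tmbim6, which encodes an ER membrane protein that restrains IRE1, with a log2 fold change of -0.997 in model against control (SE 0.29, limma adjusted p = 0.138), and Creb3l1, which encodes the collagen-related stress factor OASIS, at 0.71 (SE 0.44, adjusted p = 0.442). In SYD against control 1 of the 18 was called, beside 17.3% of all tested genes. It was Eif2ak1, named after its values were seen, at a log2 fold change of -1.55 (SE 0.29, limma adjusted p = 0.0220). Eif2ak1 encodes HRI, the heme-regulated eIF2α kinase of red cell precursors, and it had 22.2, 41.9 and 26.3 FPKM in control libraries, 29.8, 5.84 and 22.4 in model libraries and 8.14, 7.90 and 12.3 in SYD libraries. As for Asns, model library 2 and SYD libraries 1 and 2 were the lowest, which are the libraries with the lowest erythroid sums, and the part of those cells was not tested. The call of Eif2ak1 was lost without control library 2 or 3 or SYD library 1 or 2 (limma adjusted p = 0.0575 to 0.0881) and with all 9 libraries in one fit (0.181).

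The ATF4 targets had few calls outside SYD against control. Of 35 tested, 1 was lower and 0 were higher in model against control at an adjusted p under 0.05 in limma, beside 2.35% and 0.237% of all tested genes. In SYD against model 0 were called (5 at an unadjusted p under 0.05, beside 5.26% of all tested genes, and 0 by voom). In SYD against control 3 were higher and 4 lower, shares near the 7.75% and 9.57% of all tested genes, and these counts were 0 and 8 with TPM (0.417% and 18.7% of all tested genes) and 2 and 1 with all 9 libraries in one fit (0.396% and 1.42%). With TPM 29 of the 35 were called lower in model against control, beside 69.4% of all tested genes. Without model library 2, 1 was called higher and 6 lower there, beside 3.5% and 15.4%. After rescaling to genes outside the mitochondrial chromosome 3 were called lower, beside 3.27%. The medians of the log2 fold change were -0.27, 0.12 and -0.17 in the 3 comparisons, close to those of all genes in the first 2, and quantile normalization turned that of SYD against model to -0.12. Slc7a1, which encodes a transporter of cationic amino acids, fell in model against control by 1.97 on the log2 scale (SE 0.30, limma adjusted p = 0.0399). It had 3.14, 4.02 and 3.02 FPKM in control libraries, 0, 0.377 and 0 in model libraries and 1.73, 2.0 and 0.636 in SYD libraries, and its log2 fold change was -2.035 to -1.876 without control library 1, 2 or 3 or model library 3, where 0 or 1 of all tested genes were called. The call was lost with a pseudocount of 0.1 (limma adjusted p = 0.0626), with a mean FPKM of at least 1 (0.0506) and after quantile normalization (0.0628). With the pseudocount of 0.1 the log2 fold change itself was larger, at -4.365.

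The 4 targets called lower in SYD against control were Slc7a5, Slc1a5, Phgdh and Shmt2, named after their values were seen. Slc7a5, which encodes the leucine transporter LAT1, fell by 2.21 on the log2 scale (SE 0.24, limma adjusted p = 0.00814), from 13.7, 24.4 and 14.8 FPKM in control libraries to 2.57, 2.89 and 3.24 in SYD libraries, and it was at 4.29, 1.47 and 4.78 in model libraries. Slc1a5, a glutamine transporter, fell by 1.63 (SE 0.36, adjusted p = 0.0351). Phgdh, which opens serine synthesis, fell by 1.63 (SE 0.30, adjusted p = 0.0210), and Shmt2, which makes glycine from serine in mitochondria, fell by 1.13 (SE 0.26, adjusted p = 0.0366). These 4 met the study's criteria in model against control as well, at log2 fold changes of -2.09, -1.47, -1.36 and -2.30, with limma adjusted p of 0.0687, 0.0960, 0.175 and 0.232. The last, of Shmt2, was -1.23 without model library 3. Slc3a2, the heavy chain that pairs with LAT1 and the most abundant transporter of the list, had a log2 fold change of -0.14 in model against control (SE 0.33, adjusted p = 0.846).

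The 3 targets called higher in SYD against control were Ddit4 and Cebpb, which are among the 3 most abundant of the list, and Atf3, a stress-induced transcription factor named after its values were seen. Ddit4, which encodes the mTORC1 inhibitor REDD1, had 10.2, 5.70 and 15.9 FPKM in control libraries, 16.7, 24.0 and 22.8 in model libraries and 105, 54.96 and 39.4 in SYD libraries. Cebpb, a transcription factor of inflammation and a partner of ATF4, had 7.34, 9.29 and 9.67 FPKM in control libraries, 19.3, 16.5 and 23.2 in model libraries and 74.0, 27.4 and 42.0 in SYD libraries. For both genes the 3 groups were apart in FPKM, in the order control, model and SYD, and model against control turned to -1.96 for Ddit4 and -1.91 for Cebpb on the log2 scale with TPM. The log2 fold change in SYD against control was 2.52 (SE 0.48, limma adjusted p = 0.0234) for Ddit4, 2.21 (SE 0.36, adjusted p = 0.0170) for Cebpb and 2.19 (SE 0.44, adjusted p = 0.0270) for Atf3. In model against control it was 1.02 (SE 0.39, adjusted p = 0.230) for Ddit4, 1.08 (SE 0.25, adjusted p = 0.0817) for Cebpb and 1.59 (SE 0.91, adjusted p = 0.401) for Atf3. Cebpb became a call there without a filter (limma adjusted p = 0.0382, with 6.98% of all tested genes called) and without model library 2 (0.0259, with 18.9%). Atf3 became one without model library 1 (log2 fold change 2.65, limma adjusted p = 0.0341, with 5.71%). Atf3 was at 0.580, 0.215 and 0.589 FPKM in control libraries, 0, 7.47 and 8.81 in model libraries and 7.65, 8.81 and 2.38 in SYD libraries.

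Of these 7 calls, Slc7a5 kept its own whichever of the 6 libraries was left out. The other 6 were each lost without control library 1, 2 or 3 (limma adjusted p = 0.0608 to 0.124), where 1.5% to 5.45% of all tested genes were called. Without SYD library 2 the calls of Slc1a5, Phgdh, Shmt2, Ddit4 and Atf3 were lost (adjusted p = 0.0581 to 0.0840, with 11.4% of all tested genes called), and without SYD library 1 those of Slc1a5 (0.0549) and Atf3 (0.0676, with 11.8%). With all 9 libraries in one fit the calls of Slc7a5, Ddit4 and Cebpb held (limma adjusted p = 0.0331, 0.0326 and 0.0253), and those of Slc1a5 (0.0898), Phgdh (0.107), Shmt2 (0.519) and Atf3 (0.218) were lost. With TPM the 4 lower genes were still called, and Ddit4 (0.354), Cebpb (0.417) and Atf3 (0.149) were not. Without a filter Slc1a5 (0.0551) and Shmt2 (0.0539) were not called, nor was Shmt2 after rescaling to genes outside the mitochondrial chromosome (0.0522).

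Several marker sums differed in the same comparison. The B cell sums given above were apart between control and SYD, and the erythroid and neutrophil sums overlapped, with SYD library 3 within the control range. Taken singly, 4 of the 7 erythroid and 5 of the 9 neutrophil markers were lower in every SYD library than in every control library. These counts, and those of single markers below, stand beside 42.5% of all tested genes whose libraries did not overlap, in either direction. The osteoblast and osteoclast sums given above were higher in every SYD library than in every control library, as were 3 of the 8 osteoblast and 5 of the 7 osteoclast markers taken singly. The 6 endothelial markers summed to 79.8 to 111 FPKM in SYD libraries and 29.4 to 39.0 in control libraries, and were 19.8, 200 and 41.3 in model libraries, and 4 of them were higher in every SYD library than in every control library. The part of these cells in the 7 calls was not tested.

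**Figure D4:**
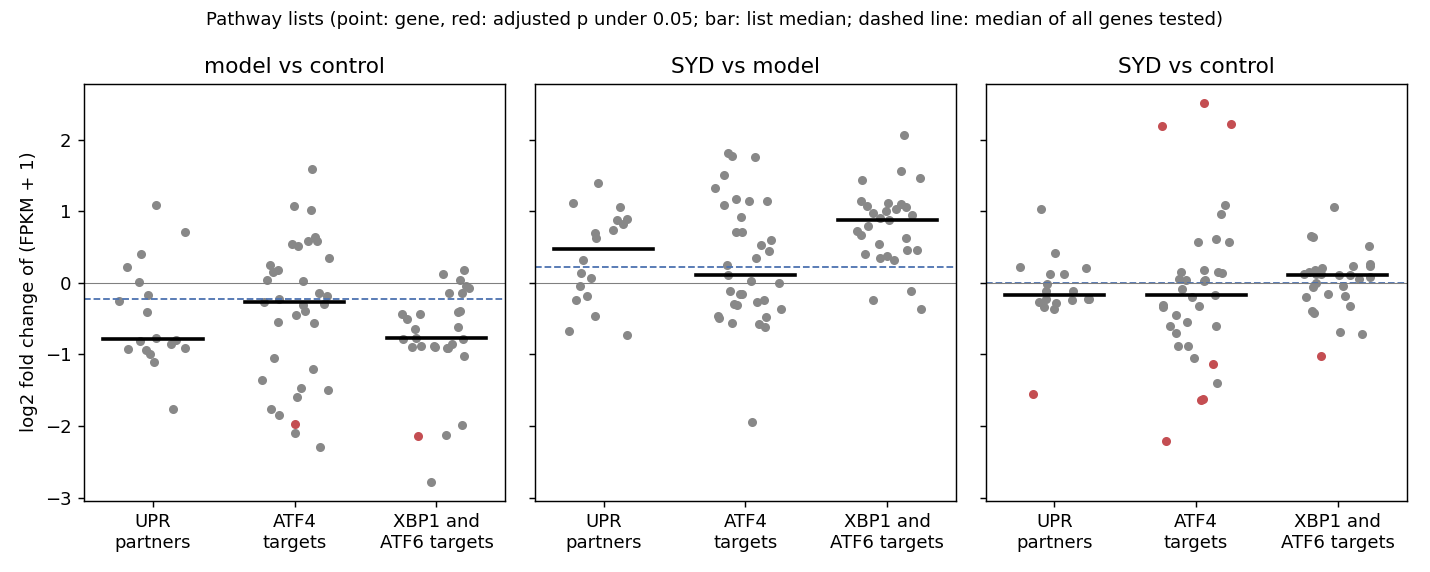
Log2 fold changes of FPKM + 1 for the genes of 3 pathway lists in the 3 comparisons. Each point is a gene (red for an adjusted p under 0.05), thick bars are list medians, and dashed lines are the medians of all tested genes at -0.23, 0.22 and 0. The medians of XBP1 and ATF6 targets are -0.76, 0.88 and 0.11.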

How the data were processed

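RNA sequencing of 9 libraries, 3 per group as the sample labels give them, was performed with the assistance of Novogene. The authors deposited one table that gives, for every gene, its position, its length and an FPKM value in each library, and the number of value columns left out was 0. The submitters' processing notes name HISAT2 2.0.5 and hg38, a human build, although the table holds rat identifiers. The counting tool and the annotation are not given in the sources used here. The labels call the tissue cartilage, while their extraction protocol speaks of retinas.

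Whole reads were recovered from FPKM and gene length (100% of the values checked were whole within 0.1 read). The library sizes that the authors' FPKM imply were 0.193 to 2.18 times the recovered reads, so the values are not scaled to the read totals, and the floor of 3 reads covers counting error only.

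Genes averaging 0.5 FPKM or more were tested with limma 3.58.1 in R 4.3.3 on log2(FPKM + 1) over the 6 libraries of each comparison (lmFit, eBayes with trend, two-sided, Benjamini-Hochberg over 13898 genes). Genes with an adjusted p under 0.05 were called, and the study's criteria were an unadjusted p under 0.05 with a log2 fold change past 1 in either direction. On this scale a fold change understates the change of low genes. Single genes were compared by exact permutation tests on the same scale, two-sided. The named genes were the 10 genes, the 3 most abundant of each pathway list and its calls in comparisons with the model group, and the other list genes were named after their values were seen. The genes and lists were chosen with earlier results of these data known. Alternatives were a pseudocount of 0.1, no filter, a minimum mean of 1 FPKM, TPM, rescaling to genes outside the mitochondrial chromosome, quantile normalization, all 9 libraries in one fit, a replicate block, each library left out, and voom on the recovered reads. A listed cell marker is not reported here and was left out of its sum.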

Additional observations from a re-analysis of the deposited data

How the results depend on the processing

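Over the log2 fold changes of the 8 genes in 3 comparisons, 324 values under an alternative kept their direction and side of the threshold, 10 became calls, 7 lost a call and 16 changed sign. A changed sign was counted only as such, called or not. No filter, a minimum mean of 1 FPKM, all 9 libraries in one fit and the replicate block leave a log2 fold change as it was. In most settings of SYD against model, and without a control library in model against control, no tested gene at all was called. The 324 are therefore not a measure of stability. The number of the 8 genes called in model against control was 0, and it was 7 with TPM (69.6% of all tested genes) and 0 to 1 with a library left out (0% to 18.9% of all tested genes, the 1 at 18.9%). The number meeting the study's criteria there was 1, and it was 8 with TPM, 2 after rescaling to genes outside the mitochondrial chromosome, 3 with voom and 0 to 2 with a library left out. In SYD against model that number was 1, and it was 0 with a pseudocount of 0.1, without a filter and after rescaling outside the mitochondrial chromosome, and 0 to 1 with a library left out. In SYD against control 1 gene was called, and 2 were with TPM (19.1% of all tested genes), 2 with voom (20.4%), 0 with all 9 libraries in one fit (1.82%, Atf6b adjusted p = 0.735 in limma) and 0 to 2 with a library left out, while 4 met the study's criteria with TPM and 0 to 1 with a library left out. TPM moved the median log2 fold change of all genes from -0.23, 0.22 and 0 to -2.60, 1.22 and -1.31 in model against control, SYD against model and SYD against control, and the cause of the other changes was not tested.

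Of the sign changes under TPM, the log2 fold changes were -3.05 for Atf4, -2.44 for Ddit3, -1.91 for Cebpb, -2.27 for Creb3l1 and -1.96 for Ddit4 in model against control, 0.47 for Asns in SYD against model, and -1.20 for Atf4 and -0.94 for Ddit3 in SYD against control. Atf4 in model against control was -0.12 after rescaling outside the mitochondrial chromosome and -0.0688 after quantile normalization. With voom, Eif2ak3 was -0.24 in SYD against model and Xbp1 was 0.0058 in SYD against control. With a library left out, the log2 fold changes in model against control ran from -0.0052 (without control 1) to 0.20 for Atf4, from -0.33 to 0.31 for P4hb (above 0 without control 1, 0.19, or model 1) and from -0.42 to 0.0872 for Slc3a2 (above 0 without control 2, 0.02, or model 2). In SYD against model they ran from -0.18 to 0.32 for Ddit3 (below 0 without SYD 1 or model 3, -0.04) and from -0.13 (without model 3) to 0.98 for Atf6. Those in SYD against control ran from -0.17 to 0.15 for Xbp1 (above 0 without control 1 or SYD 3, 0.14) and from -0.36 to 0.12 for Ern1 (above 0 without SYD 3).

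The exact permutation p over the 3 groups was under 0.05 for 2 of 9 genes, and for 3 with a pseudocount of 0.1, 3 after rescaling outside the mitochondrial chromosome and 8 with TPM.

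Over all genes, the number called in model against control was 360, and it was 1532 without a filter, 105 with a mean FPKM of at least 1, 9673 with TPM, 113 after quantile normalization and 634 with all 9 libraries in one fit. It was 0 without control library 1, 2 or 3, and 793, 2621 and 1 without model library 1, 2 or 3. The number in SYD against control was 2407, and it was 253 with all 9 libraries in one fit, 758, 592 and 209 without control library 1, 2 or 3, and 1640, 1587 and 3526 without SYD library 1, 2 or 3.

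Libraries with the same replicate number did not deviate together (correlations of -0.267 to 0.194 over 9 pairs), so the numbers do not pair the libraries. With the replicate block, 0 of the 8 genes and 0 of all genes were called in model against control and in SYD against control.

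Depth limits how low a level can be read in model library 1, where 3 reads equal up to 0.956 FPKM (Ddit3). In model library 2 Ern1 was at 0 although 3 reads equal 0.0316 FPKM there. The part of depth in the zeros was not tested.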

Other observations

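The likeness of the genes over the 9 libraries, as Pearson's r of log2(FPKM + 1), is a description, since the libraries share group, depth and mitochondrial share. Eif2ak3 and Atf6b were most alike of the 8 genes (r = 0.860), followed by Ern1 and Xbp1 (r = 0.795) and Atf4 and Ddit3 (r = 0.674). Atf6 was most like Eif2ak3 (r = 0.595). Asns was like none of them, with its highest r at -0.02 (Atf6b) and its lowest at -0.77 (Ddit3). The single tested gene most like each was Marchf6 for Atf6b (r = 0.991), Zbtb7a for Asns (r = 0.986), Edem1 for Atf6 (r = 0.985), Igtp for Eif2ak3 (r = 0.985), Galnt5 for Xbp1 (r = 0.965), Apobec1 for Ddit3 (r = 0.948), Map1s for Ern1 (r = 0.942) and Matk for Atf4 (r = 0.933).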
